A study of Mus musculus with 12 samples.

Results

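The mRNA levels of 35 genes of glucose use were followed while mouse neural stem cells left proliferation and began to become GABAergic neurons. The genes were chosen by symbol, as members of glycolysis, of the handling of lactate and pyruvate, and of the pentose phosphate pathway, and all 35 were found among the 22609 genes counted. The cells are ANS cells (adherent neural stem cells), which were derived from the brain of normal E14.5 mouse embryos, so that no group carries an engineered allele. T0 cells (3 libraries) grew in complete growth medium with 20 ng/ml FGF2, 20 ng/ml EGF and 1% N2 supplement. T1 cells (3 libraries) had spent 2 days in medium D1, which holds 10 ng/ml FGF, 2 ng/ml EGF, 0.5% N2 and 1% B27. T2 cells (4 libraries) had spent 2 days, and T3 cells (2 libraries) 10 days, in medium B, where EGF is left out and 20 ng/ml BDNF is added to 10 ng/ml FGF2, 0.5% N2 and 1% B27. By the paper, T2 and T3 cells had first passed through medium D1, so the time points are successive steps. The days are those of the sample labels. The paper's text differs in places, and gives T3 as 10 further days after the T2 steps. Cells were replated on laminin for medium B, and the basal medium changed from Euromed-N at T0 and T1 to a mix of DMEM/F12 and Neurobasal at T2 and T3, so that time, growth factors and supplements cannot be told apart at T1, nor these, substrate and basal medium at T2 and T3. RNA came from whole cultures.

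Glycolysis splits glucose into pyruvate. Glucose enters through transporters, is trapped by hexokinases, is cut into triose phosphates in the upper steps and yields ATP in the lower steps. Pyruvate is either reduced to lactate and exported or oxidised in mitochondria by the pyruvate dehydrogenase complex, which pyruvate dehydrogenase kinases switch off. The pentose phosphate pathway branches off at glucose-6-phosphate and supplies NADPH and ribose for biosynthesis. Neural stem cells and other dividing cells are known for high glycolytic and lactate-forming activity, and neurons for greater reliance on mitochondrial oxidation.

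Between 8910724 and 16631614 reads were counted on genes per library. The 5 markers of neural progenitors (Nes, Sox2, Fabp7, Vim and Pax6) were detected in all 12 libraries, with 1 of them, Vim, called lower at T2, the 5 microglial markers and the 5 markers of endothelium and blood stayed under 1 CPM (counts relative to the normalized library total) in every library, and the GABA-synthesising enzyme gene Gad1 went from 1.2 to 4.03 CPM at T0 to 23.9 to 56.4 CPM later. The summed level of 5 proliferation markers was 1368 to 2178 CPM at T0, 104 to 217 at T1, 135 to 276 at T2 and 437 to 772 at T3, so the T3 libraries were not below T2 in these genes. Of the oligodendrocyte lineage markers, which summed to 976 to 1359 CPM at T0 and 1325 to 1712 CPM later, Olig2 was at 935 CPM or more in every library, Pdgfra was higher at T1 and T2 (log2 fold change 2.83 and 3.02) and the myelin gene Mbp stayed near 0. The part of these cell type markers in the results was not tested. Library T0 replicate 3 stood apart. Its counts differed from T0 replicates 1 and 2 by chi-square values of 96.4 and 99.9 per gene, against 3.17 between the other two, and the 6 astrocyte markers summed to 74.5 CPM in it against 656 and 679 CPM. Results that rest on T0 are therefore given with and without it. T1 replicate 3 also held more glycolytic mRNA than the other T1 libraries, as described below.

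Taken as a sum, the mRNA of the 35 genes was 5416, 5375 and 5932 CPM in the 3 T0 libraries. It was 2942, 2976 and 3706 CPM at T1, 3082, 2897, 3208 and 3254 CPM at T2, and 3088 and 3537 CPM at T3. Every later library thus lay below every T0 library. The upper glycolytic genes made up the largest share and went from 2111 to 2275 CPM at T0 to 1011 to 1313 CPM at T1. In bulk RNA, fewer cells with high expression and less RNA per cell cannot be told apart.

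**Figure D1:**
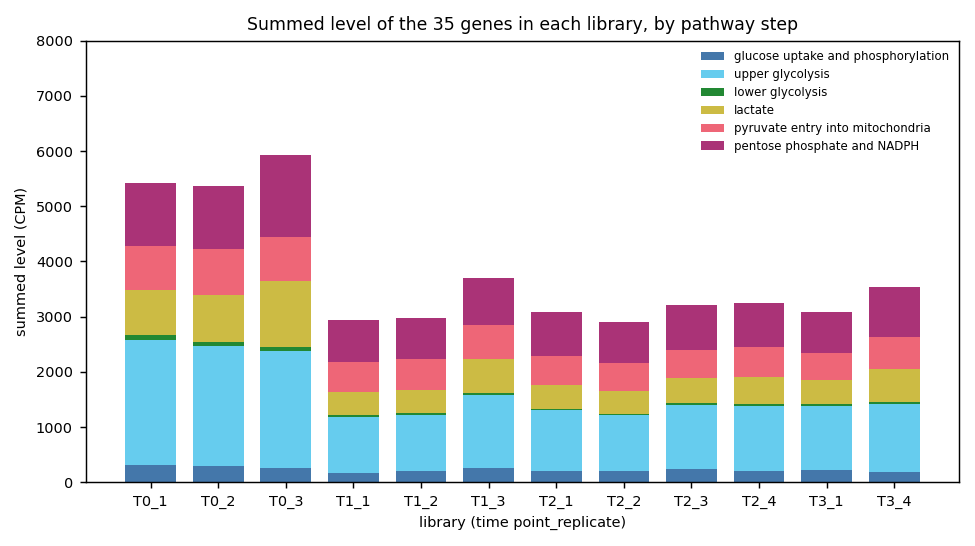
Summed level in CPM (vertical axis, from 0) of the 35 genes in each of the 12 libraries (horizontal axis, time point and replicate), with coloured segments for the 6 steps. The 3 T0 libraries stand at 5375 to 5932 CPM and the 9 later ones at 2897 to 3706 CPM.

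At T1, 18 of the 34 genes tested were lower than at T0 and 3 were higher (adjusted p under 0.05). Over all genes tested, 16.8% were called lower and 15.1% higher. At T2, 20 of 33 were lower and 4 higher, against 21.8% and 21.4% of all genes. At T3, 7 of 33 were lower and 1 was higher, against 1.41% and 3.31% of all genes. The genes had a median log2 fold change of -0.78, -0.84 and -0.65 in the 3 comparisons, and all genes tested had -0.0082, 0.0023 and -0.0149. These 3 comparisons share the T0 libraries, and the p-values measure the spread between libraries, whose source cultures the labels do not name.

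T0 replicates 1 and 2 were the most alike of all pairs of 1 time point (chi-square 3.17 per gene, against 5.13 or more). Fits without T0 replicate 3 take the T0 spread from these 2 alone, so their p-values may be too small. Without T0 replicate 3, 22 of 34 genes were lower and 7 higher at T1, against 24.9% and 25.2% of all genes. These additions were Slc2a3, Hk2, Pfkm and Dlat (lower) and Hk1, Pfkfb2, Pdk2 and Rpia (higher). The counts were 21 lower and 6 higher of 33 at T2, against 25.3% and 26.7%, and 13 lower and 2 higher of 33 at T3, against 8.49% and 9.94%. The T1 count was 11 lower without T1 replicate 1 or without T1 replicate 2, and 1 higher without either of these or without T0 replicate 2. Among the T1 calls lost in one or more of these fits were Slc2a1, Gpi1, Pgam1, Eno1, Pdk1, G6pdx, Pgd, Me1, Pfkfb3 and Pcx. At T3, leaving out T0 replicate 1 or T0 replicate 2 left 0 genes called in either direction. So did leaving out T3 replicate 1 or T3 replicate 4, where a single T3 library remained and was assumed to vary like T0. In one fit of all 12 libraries, which lends the spread of the larger groups to T3, 17 genes were lower and 2 higher at T3, against 14.4% and 15.4% of all genes. All T3 libraries lay below all T0 libraries for 20 of the 33 and above for 6, against 25.5% and 24.6% of all genes tested. Slc2a1, Pfkl, Aldoa, Tpi1, Pgk1 and Pdk1 were called lower at all 3 times, and Ldhb was called higher at all 3.

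**Figure D2:**
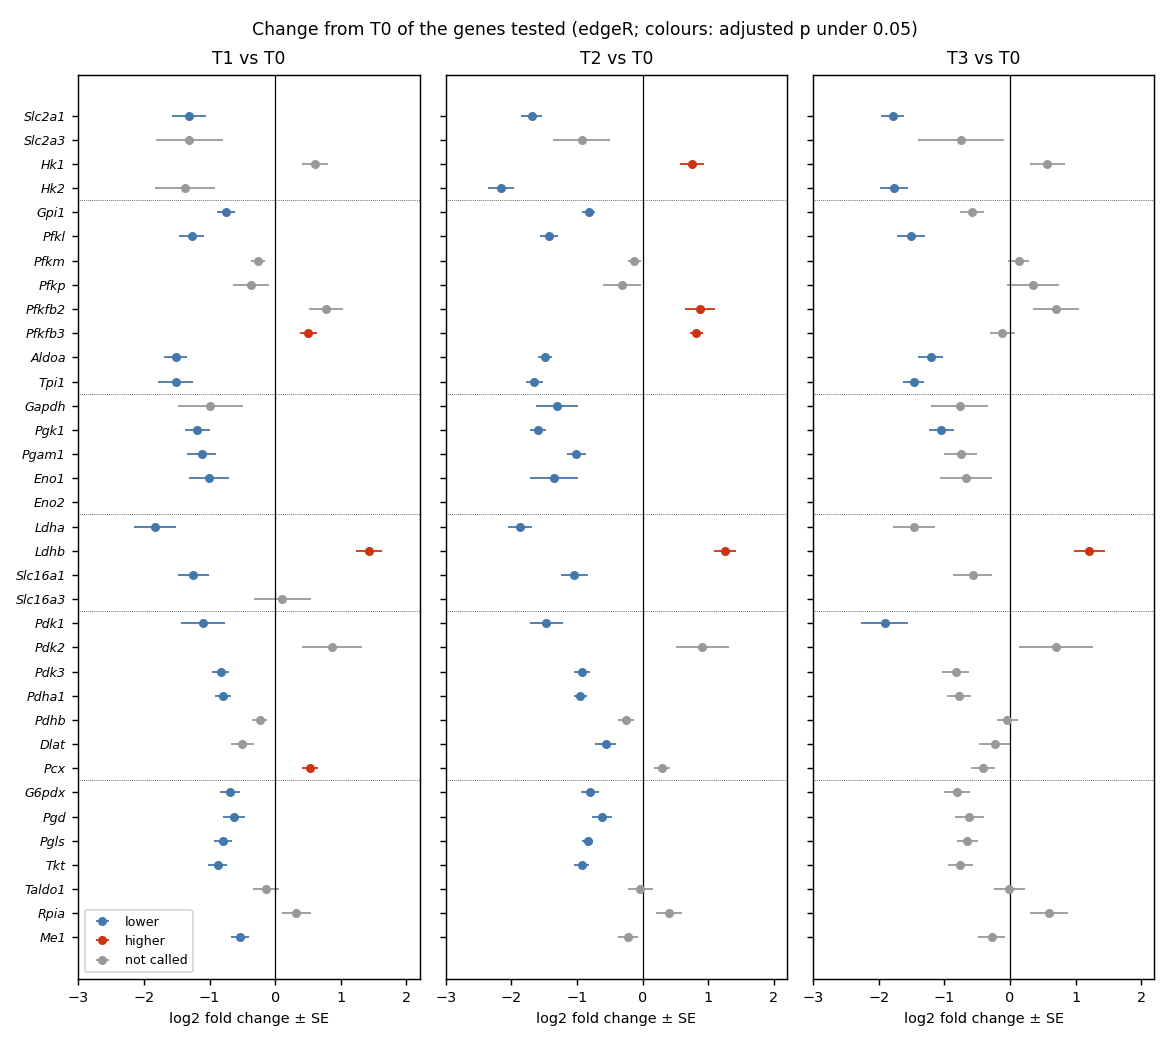
Log2 fold change from T0 with its standard error (horizontal axis) for each gene tested (rows, ordered by step, dotted lines between steps) at T1, T2 and T3. Blue marks genes called lower, red genes called higher and grey genes not called (edgeR, adjusted p under 0.05). Blue points are most frequent at T1 and T2, and at T3 many genes keep a negative value but are grey.

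Slc2a1 encodes the glucose transporter GLUT1 and lies on the plus strand of chromosome 4 (mm9, chr4:118781316-118809935). In the T0 libraries it measured 78.6, 67.9 and 70.3 CPM, and in those of T1 22.1, 22.8 and 42.3 CPM. At T2 it measured 20.4, 17.6, 28 and 22.9 CPM, and at T3 19.5 and 21.8 CPM. All later libraries lay below all T0 libraries. The log2 fold change was -1.32 ± 0.26 (SE) at T1 (adjusted p = 0.011), -1.69 ± 0.16 at T2 (adjusted p = 0.00015) and -1.79 ± 0.17 at T3 (adjusted p = 0.015). Slc2a3, the high-affinity transporter GLUT3 known from neurons, was at 51.5 and 52.2 CPM in T0 replicates 1 and 2 but at 12.5 CPM in replicate 3. Its later values ran from 12.2 to 30.4 CPM, so T0 replicate 3 overlapped them and no comparison passed the test. Without that library Slc2a3 was lower at T1 (log2 fold change -1.72, adjusted p = 6.5e-05) and at T2 (-1.35, adjusted p = 5e-05), and at T3 it measured -1.16 (adjusted p = 0.066).

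The hexokinases, which phosphorylate glucose on entry, went in opposite directions. Hk2, the growth-associated form, started from 85.2, 82.4 and 117 CPM and stood at 19.1, 24.6 and 66.2 CPM in the T1 libraries. At T2 it measured 23, 24, 14.9 and 22.7 CPM, and at T3 25.3 and 29.8 CPM. It was lower at T2 (log2 fold change -2.16 ± 0.20, adjusted p = 0.00013) and T3 (-1.77 ± 0.22, adjusted p = 0.021). At T1 the value was -1.38 ± 0.46 (adjusted p = 0.058), with T1 replicate 3 well above its group. Without T1 replicate 3 it was -2.13 (adjusted p = 0.0064). Hk1, the form typical of brain, was at 95, 98.6 and 60.5 CPM at T0 and rose to 131, 136, 162 and 137 CPM at T2 (log2 fold change 0.75 ± 0.18, adjusted p = 0.011). At T1 it measured 120, 135 and 135 CPM, above all T0 libraries, with an adjusted p of 0.053, or 0.0038 without T0 replicate 3.

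Among the 8 upper glycolytic genes, 4 were lower and 1 higher at T1, 4 lower and 2 higher at T2, and 3 lower at T3. Of all genes, 16.8%, 21.8% and 1.41% were called lower at these times. The higher counts were near the 15.1% and 21.4% of all genes called higher at T1 and T2. Gpi1, which makes fructose-6-phosphate, was at 354 to 400 CPM at T0 and at 190 to 224 CPM at T2 (log2 fold change -0.82 ± 0.10, adjusted p = 0.00051). Pfkl, the liver-type phosphofructokinase of the committed step, was at 259, 249 and 225 CPM at T0. It measured 84.1, 90.8 and 132 CPM at T1, 76.8, 80.5, 96.6 and 107 CPM at T2, and 101 and 69.5 CPM at T3. No later library reached the lowest T0 value. The log2 fold changes of Pfkl were -1.27 ± 0.19, -1.43 ± 0.14 and -1.51 ± 0.22 in time order (adjusted p = 0.0037, 0.00015 and 0.028).

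The other phosphofructokinase genes did not pass the test at any time with all libraries. Pfkm, the muscle type, was at 211 to 247 CPM at T0 and 188 to 260 CPM later, and passed at T1 without T0 replicate 3 (log2 fold change -0.33, adjusted p = 0.0064). Pfkp, the platelet type, stayed at 2.45 to 5.5 CPM. Pfkfb2 and Pfkfb3 encode bifunctional enzymes that set fructose-2,6-bisphosphate, the activator of phosphofructokinase. Pfkfb3, which strongly favours its synthesis, was at 61.3, 61.9 and 55.4 CPM at T0, 89.5, 91.6 and 73.7 CPM at T1, and 110, 99.7, 111 and 96.9 CPM at T2. At T3 it was back at 62.1 and 46.1 CPM. It was higher at T1 (log2 fold change 0.50 ± 0.13, adjusted p = 0.025) and T2 (0.82 ± 0.10, adjusted p = 0.00054). The T1 call was lost without T0 replicate 1, T0 replicate 2, T1 replicate 1 or T1 replicate 2 (adjusted p = 0.057 to 0.11) and on FPKM (adjusted p = 0.12). Pfkfb2 was at 54.8, 54.4 and 27.3 CPM at T0 and at 74.6 to 89.3 CPM at T2 (0.87 ± 0.23, adjusted p = 0.017), and measured 0.77 ± 0.26 at T1 (adjusted p = 0.063).

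Aldoa, the ubiquitous aldolase, was at 661, 583 and 616 CPM at T0. It was at 186, 190 and 276 CPM at T1, at 195 to 240 CPM at T2 and at 229 and 302 CPM at T3. Tpi1, the triose phosphate isomerase, started from 590, 610 and 602 CPM and stood at 165, 162 and 305 CPM in the T1 libraries. It stayed at 164 to 227 CPM at T2 and at 203 and 226 CPM at T3. For both genes T1 replicate 3 was the highest of the later libraries or near it, and still below T0. Aldoa had log2 fold changes of -1.52 ± 0.18, -1.49 ± 0.11 and -1.21 ± 0.19 at T1, T2 and T3 (adjusted p = 0.0017, 7.5e-05 and 0.033). Tpi1 had -1.52 ± 0.26, -1.65 ± 0.13 and -1.47 ± 0.16 (adjusted p = 0.0065, 8.2e-05 and 0.018). Aldoa was not the most abundant aldolase mRNA. The brain form Aldoc, which is not among the 35 genes and was named after its values were seen, had a mean FPKM of 1710 at T0 against 400 for Aldoa, and its log2 fold change was -0.06 ± 0.17, -0.30 ± 0.18 and -0.84 ± 0.18 (adjusted p = 0.8, 0.21 and 0.061). Without T0 replicate 3 its T3 difference was called (adjusted p = 0.016).

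**Figure D3:**
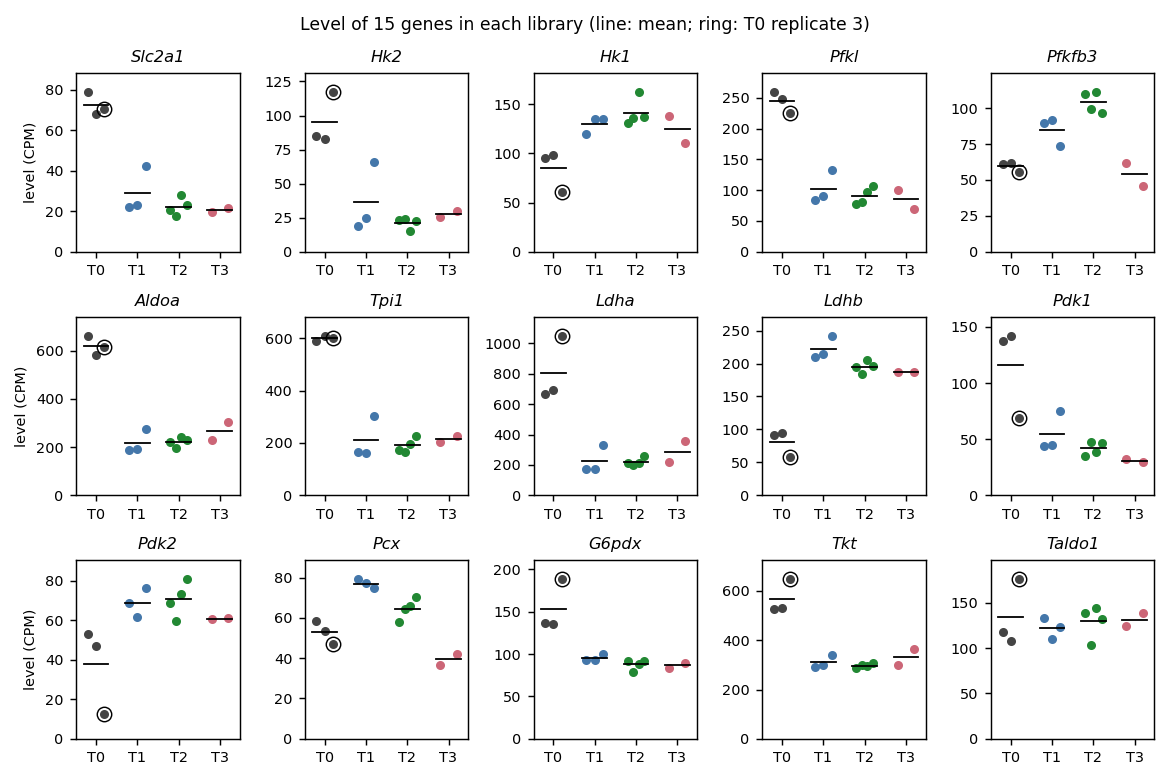
Level in CPM (vertical axes, from 0) of 15 genes in every library at T0, T1, T2 and T3, with a line at each group mean and a ring on T0 replicate 3. The libraries of T1, T2 and T3 lie below T0 for Slc2a1, Hk2, Pfkl, Aldoa, Tpi1, Ldha, G6pdx and Tkt. They lie above T0 for Hk1, Ldhb and Pdk2, while Pfkfb3 and Pcx are lower again at T3.

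Gapdh, Eno1 and Eno2, of the lower glycolytic steps, were counted at very low levels. Gapdh, glyceraldehyde-3-phosphate dehydrogenase and the reference mRNA of the study's qPCR, was at 0.603 to 4.16 CPM in all libraries. Eno1, the ubiquitous enolase, was at 0.29 to 2.14 CPM, or 3 to 31 counts, although the deposited FPKM (fragments scaled by transcript length and library size) of Eno1 were 42.1 to 157. The transcripts of these genes resemble many other places in the genome. Of the 50-base windows of the longest transcript, 85.6% for Gapdh, 92.9% for Pgk1, 91.9% for Pgam1 and 72.2% for Eno1 had an exact match elsewhere in NCBIM37 (mm9). The share was 0% for Slc2a1 and Hk2 and 36.1% at most for the other genes among the 35 (Me1). Reads with several alignments went to no gene. They made up 34%, 34.6% and 39% of the reads and alignments tallied at T0 and 26% to 33.3% later. The part of this difference in the results was not tested. Shares of 23.6% to 33.6% also leave Tpi1, Ldha, Gpi1 and Ldhb open to such losses. The levels of Gapdh, Pgk1, Pgam1 and Eno1 are therefore uncertain, and their changes describe only the reads that aligned once.

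**Figure D4:**
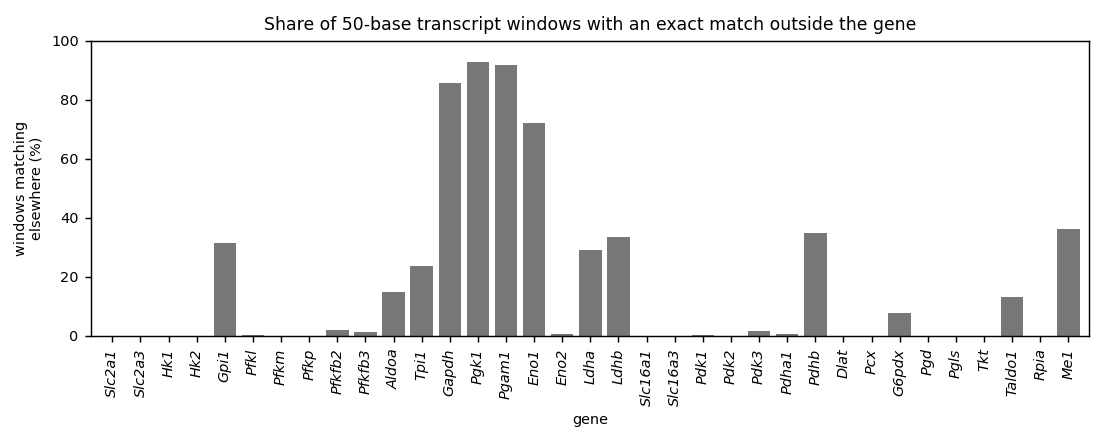
Percent of 50-base windows of the longest coding transcript that match the genome exactly outside the gene (vertical axis) for each gene (horizontal axis). Gapdh, Pgk1, Pgam1 and Eno1 stand at 72.2% to 92.9%, and the other genes at 36.1% or less.

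On those reads, Pgk1, a phosphoglycerate kinase gene of the X chromosome that makes ATP, was at 56.3, 60 and 50.8 CPM at T0 and at 16.2 to 19.6 CPM at T2 (log2 fold change -1.60 ± 0.12, adjusted p = 7.7e-05). It was lower at T1 and T3 too. Pgam1, a phosphoglycerate mutase, was lower at T1 (-1.12 ± 0.22, adjusted p = 0.011) and at T2 (-1.01 ± 0.15, adjusted p = 0.0012). Eno1 was lower at T1 (-1.01 ± 0.31, adjusted p = 0.043) and T2 (-1.35 ± 0.37, adjusted p = 0.018), and was not called at T1 with DESeq2 (adjusted p = 0.074), with no filter, with the replicate block (adjusted p = 0.089) or without any one of T0 replicates 1 and 2 and T1 replicates 1, 2 and 3. The T2 call was lost without T0 replicate 2 (adjusted p = 0.06) and with the block (adjusted p = 0.056). On FPKM values the same differences were -1.27 and -1.32 on the log2(FPKM + 1) scale. Gapdh was lower at T2 (-1.30 ± 0.32, adjusted p = 0.011) and measured -0.99 ± 0.50 at T1 (adjusted p = 0.17). Eno2, the enolase of mature neurons, had 1 to 10 counts per library and did not enter the test.

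The lactate dehydrogenase genes moved in opposite directions and converged. Ldha, whose subunit is associated with lactate formation, lies on chromosome 7 (mm9, chr7:54096845-54110997), and Ldhb, whose subunit is associated with lactate use, on chromosome 6 (chr6:142438769-142456477). Ldha measured 665, 695 and 1050 CPM in the T0 libraries and 170, 174 and 333 CPM in the T1 libraries. It measured 212, 198, 210 and 256 CPM at T2 and 217 and 359 CPM at T3. Ldhb, in turn, started from 91.4, 94.3 and 58.7 CPM and reached 210, 214 and 242 CPM in the T1 libraries. It measured 195, 184, 206 and 196 CPM at T2 and 187 CPM in both T3 libraries. No later library overlapped T0 for either gene. The log2 fold change of Ldha was -1.84 ± 0.32 at T1 and -1.87 ± 0.18 at T2 (adjusted p = 0.007 and 0.00016), and -1.46 ± 0.32 at T3 (adjusted p = 0.061, or 0.034 without T0 replicate 3). Ldhb rose by 1.43 ± 0.20, 1.26 ± 0.17 and 1.21 ± 0.24 on the log2 scale at T1, T2 and T3 (adjusted p = 0.0027, 0.00072 and 0.0499). Without T0 replicate 3 the T1 values were -1.6 for Ldha and 1.25 for Ldhb. Part of both transcripts is shared with other places, 29.1% of the windows for Ldha and 33.6% for Ldhb.

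On the per-length scale, the mean FPKM of Ldha was 416 at T0 and 114 at T1, and that of Ldhb 51.8 and 139. At T0 Ldha was the gene with the second and Ldhb that with the 13th highest mean FPKM of the 35, and at T2 they stood 5th and 3rd. Tpi1 had the highest mean FPKM of the 35 at T0, T2 and T3. Gapdh, Pgk1 and Pgam1, with 85.6% to 92.9% of windows matching elsewhere, had only 8.09, 24.1 and 6.38 at T0. How the FPKM treat reads with several alignments is not given, so these ranks are uncertain as measures of mRNA level.

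Slc16a1, the lactate transporter MCT1, was at 57.1, 59.1 and 102 CPM at T0 and fell at T1 (28.7 to 32.6 CPM, log2 fold change -1.25 ± 0.24, adjusted p = 0.0096) and T2 (32.6 to 37.8 CPM, -1.04 ± 0.20, adjusted p = 0.0043). At T3 it measured 43.8 and 53 CPM (-0.57 ± 0.30, adjusted p = 0.28). Without T0 replicate 3 the T1 log2 fold change of Slc16a1 was -0.92. Slc16a3, the exporter MCT4, had 2 to 13 counts per library.

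The kinases that inhibit pyruvate dehydrogenase also diverged. Pdk1, a hypoxia-inducible form, was at 137 and 142 CPM in T0 replicates 1 and 2 and at 68.8 CPM in replicate 3. The T1 libraries held 43.5, 44.6 and 74.9 CPM of it, those of T2 34.9, 47.3, 38.2 and 46.7 CPM, and those of T3 31.9 and 29.4 CPM. T1 replicate 3 overlapped T0 replicate 3, and the other later libraries lay below T0. Pdk1 fell by 1.10 ± 0.33 at T1, 1.47 ± 0.25 at T2 and 1.91 ± 0.36 at T3 on the log2 scale (adjusted p = 0.044, 0.0021 and 0.046). Without T0 replicate 3 the falls were 1.36, 1.73 and 2.17. Pdk3 fell as well at T1 (-0.83 ± 0.13, adjusted p = 0.0048) and T2 (-0.93 ± 0.12, adjusted p = 0.0005). Pdk2 was at 53.3, 47 and 12.8 CPM at T0 and at 59.6 to 80.8 CPM afterwards. Its groups did not overlap, and it did not pass the test with all libraries but passed without T0 replicate 3, with a log2 fold change of 0.45 at T1 (adjusted p = 0.011) and 0.50 at T2 (adjusted p = 0.0075).

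The complex itself changed unevenly. Pdha1, its E1 alpha subunit, was at 374 to 429 CPM at T0 and at 195 to 223 CPM at T2 (log2 fold change -0.95 ± 0.10, adjusted p = 0.00024) and was lower at T1. Dlat, the E2 subunit, was lower at T2 (-0.56 ± 0.16, adjusted p = 0.021, and -0.34 without T0 replicate 3, which held 131 CPM against 85.8 and 87). Pdhb, the E1 beta subunit, measured -0.24 ± 0.11 at T1 and -0.25 ± 0.12 at T2 (adjusted p = 0.13 and 0.11). Pcx, pyruvate carboxylase, which feeds oxaloacetate into the citric acid cycle, rose from 58.5, 53.5 and 46.9 CPM to 79.1, 77.4 and 74.6 CPM in the T1 libraries (0.53 ± 0.12, adjusted p = 0.018). It was at 57.8 to 70.4 CPM at T2 and at 36.6 and 42.3 CPM at T3, below every earlier library.

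Of the 7 genes listed for the pentose phosphate pathway and NADPH, which include the malic enzyme Me1, 5 were lower at T1 and 4 at T2. Over all genes tested, 16.8% and 21.8% were called lower. G6pdx, the X-linked glucose-6-phosphate dehydrogenase that opens the pathway and makes NADPH, was at 137, 135 and 188 CPM at T0, 92.7 to 100 CPM at T1 and 78.6 to 92 CPM at T2. The log2 fold change was -0.69 ± 0.15 at T1 and -0.80 ± 0.14 at T2 (adjusted p = 0.016 and 0.0025). Pgls (lactonase) fell by 0.80 and 0.84, Pgd (6-phosphogluconate dehydrogenase) by 0.63 and 0.62, and Tkt (transketolase) by 0.88 and 0.93 on the log2 scale at T1 and T2. Tkt was at 527 to 647 CPM at T0 and never above 365 CPM later. Without T0 replicate 3 the T1 log2 fold changes were -0.52 for G6pdx, -0.76 for Pgls, -0.43 for Pgd and -0.78 for Tkt.

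Taldo1 and Rpia behaved otherwise. Taldo1, transaldolase, was at 108 to 176 CPM at T0 and 104 to 144 CPM later, with log2 fold changes of -0.14 ± 0.20, -0.04 ± 0.19 and -0.01 ± 0.24. Rpia, which makes ribose-5-phosphate, was at 6.65, 7.47 and 10.6 CPM at T0 and 9.65 to 12.8 CPM later, and was not called with all libraries but was called higher at each time without T0 replicate 3 (adjusted p = 0.014, 0.0089 and 0.049). Me1, the cytosolic NADPH-forming malic enzyme, is not part of the pathway. It was lower at T1 (-0.54 ± 0.14, adjusted p = 0.024) and measured -0.22 ± 0.15 at T2 (adjusted p = 0.27).

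Between T1 and T2 none of the 33 genes was called, against 0.0565% of all genes lower and 0.573% higher. At an unadjusted p under 0.05 there were 4, Pfkfb3, Pgk1, Ldhb and Pcx, and DESeq2 called 0. From T2 to T3, 2 of 33 genes were lower and 0 higher, against 0.691% and 0.5% of all genes, with 4 genes higher at an unadjusted p under 0.05. The 2 were Pfkfb3 (log2 fold change -0.94 ± 0.14, adjusted p = 0.034) and Pcx (-0.71 ± 0.12, adjusted p = 0.046), whose 2 T3 libraries both lay below the 4 T2 libraries. Both calls were lost when any one of T2 replicates 1, 2, 3 and 4 was left out, and without T3 replicate 1, when the lone T3 library was assumed to vary like T2, 4 genes were called higher. The proliferation markers stood at 437 and 772 CPM in sum at T3, against 135 to 276 CPM at T2, and their part in these differences was not tested.

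Ratios of related enzymes within a library do not depend on scaling between libraries. Of 10 ratios of counts, 8 differed between the 4 time points (exact permutation test of the F statistic over 277200 arrangements of the 12 libraries, adjusted over the 10 ratios). The number was 5 without T3 replicate 4. Over T0, T1 and T2 alone it was 5, and 0 when the libraries were permuted within replicate numbers of those groups, a block whose smallest possible p is 0.028 before adjustment. Ldhb per Ldha was 0.137, 0.136 and 0.056 at T0, 1.24, 1.23 and 0.726 at T1, between 0.767 and 0.981 in the T2 libraries, and 0.862 and 0.521 at T3 (exact permutation p = 0.0021, adjusted p = 0.0074). Pdk2 per Pdk1 was 0.389, 0.332 and 0.187 at T0 and 1.02 to 2.07 later (exact permutation p = 0.0011, adjusted p = 0.0074). Pfkm per Pfkl was 0.938 to 0.991 at T0 and 1.43 to 3.6 later (exact permutation p = 0.0022, adjusted p = 0.0074). In these 3 ratios no later library overlapped T0.

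Hk2 per Hk1 was 0.896, 0.836 and 1.93 at T0 and 0.0919 to 0.492 later (exact permutation p = 0.0065, adjusted p = 0.013). Pfkfb2 per Pfkfb3 was highest at T3, at 1.39 and 1.31, against 0.493 to 0.977 in the other libraries (exact permutation p = 0.01, adjusted p = 0.017). The ratios Pfkp per Pfkl, Eno2 per Eno1 and Slc16a3 per Slc16a1 also passed (adjusted exact permutation p = 0.023, 0.013 and 0.033), but rest on genes with counts as low as 28, 1 and 2 in a library. Slc2a3 per Slc2a1 and Pdk3 per Pdk1 did not pass (adjusted exact permutation p = 0.15 and 0.19). In both, T0 replicate 3 was far from replicates 1 and 2, with 0.178 against 0.656 and 0.769, and 0.669 against 0.276 and 0.275.

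**Figure D5:**
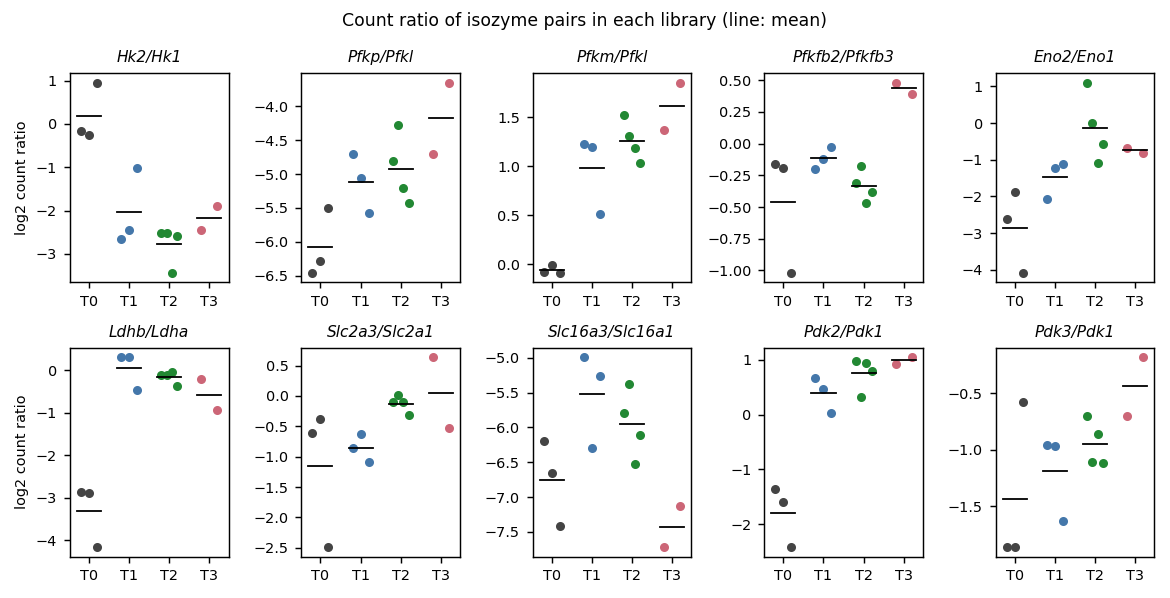
Log2 ratio of counts of 10 pairs of related genes in every library (points) at T0, T1, T2 and T3, with a line at the group mean. The T0 libraries lie apart from all later ones for Ldhb/Ldha, Pdk2/Pdk1, Pfkm/Pfkl and Hk2/Hk1.

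Libraries of one time point were not alike in these genes. T1 replicate 3 held 1.88 times the mean of T1 replicates 1 and 2 for Slc2a1. Its summed level of 16 hypoxia-response genes that are not among the 35 was 1149 CPM, against 773 and 798 CPM in the other T1 libraries. That sum was 1403, 1376 and 705 CPM in T0 replicates 1, 2 and 3, 734 to 836 CPM at T2 and 691 to 740 CPM at T3. T0 replicate 3 was thus low in this sum and in Slc2a3, Pdk1 and Pdk2, and high in Ldha, Hk2 and Slc16a1. Not every gene of the list was low in it. It held 0.192 times the mean of T0 replicates 1 and 2 for Vegfa, and 1.07 times for Bnip3l. The part of the list's level in the results was not tested.

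Of the hypoxia-response list, 3 of 13 genes tested were called lower at T1, then 8 of 13 at T2, and finally 1 of 14 at T3, with 0 higher, against 16.8%, 21.8% and 1.41% of all genes lower. Without T0 replicate 3 there were 10, 12 and 9, against 24.9%, 25.3% and 8.49%. By mean CPM over all 12 libraries its most abundant members were Kdm3a, Ddit4, Egln1 and P4ha1. P4ha1, a collagen prolyl hydroxylase, was lower at all 3 times (log2 fold change -0.93, -1.10 and -1.07, adjusted p = 0.021, 0.00016 and 0.032), and Egln1, an oxygen sensor, at T2 (-0.42, adjusted p = 0.0051). Kdm3a and Ddit4 did not pass at any time with all libraries, and Ddit4 was lower at T2 and T3 without T0 replicate 3 (-0.81 and -0.92). Vegfa, an angiogenic factor, was at 267, 253 and 49.8 CPM at T0, 14.2, 18.5 and 86.2 CPM at T1, and 27.7 to 37.3 CPM later, and was lower at T2 (-2.49 ± 0.47, adjusted p = 0.0038).

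Among the regulators of glucose use, 1 of 5 tested was called higher at T1 and T2, near the 15.1% and 21.4% of all genes. At T3 0 were called, and 0 were lower at any time with all libraries. Without T0 replicate 3, 1 was called higher at T3, against 9.94% of all genes. Hif1a, the hypoxia-inducible factor that drives many glycolytic genes, was higher at T1 (log2 fold change 0.43 ± 0.12, adjusted p = 0.033) and T2 (0.51 ± 0.12, adjusted p = 0.010). Its partner Arnt, the glucose sensor Mlxip, the glucose-uptake inhibitor Txnip and the mitochondrial coactivator Ppargc1a did not pass at any time with all libraries. Without T0 replicate 3, Ppargc1a was lower at T1 (-1.08, adjusted p = 7.9e-05) and Arnt at T2 (-0.25, adjusted p = 0.033). Txnip was at 92.6 and 90.3 CPM in T0 replicates 1 and 2, at 14.8 CPM in replicate 3 and at 66.1 to 105 CPM later. Mlxipl was at or near 0 in every library.

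Of 49 other pathway genes, 45 were in the files and 32 were tested at T1, where 11 were lower and 7 higher, against 16.8% and 15.1% of all genes. At T2 12 of 33 were lower and 9 higher, against 21.8% and 21.4%, and at T3 1 of 33 was lower, against 1.41%. Without T0 replicate 3, 14 were lower and 8 higher at T1, against 24.9% and 25.2% of all genes. The counts were then 12 and 9 at T2, against 25.3% and 26.7%, and 8 and 6 at T3, against 8.49% and 9.94%. Fbp2, a fructose bisphosphatase of muscle, went from 1.87 to 3.29 CPM at T0 to 0.324 CPM or less later and was called lower at all 3 times. Fbp1 (-1.75 ± 0.47) and Pfkfb1 (-1.83 ± 0.29) were lower at T1, and the mitochondrial malic enzyme Me3 was higher (2.76 ± 0.39). At T2 Tktl1 was higher from counts of 1 to 3 at T0 and 8 to 26 at T2, and Shpk, sedoheptulokinase, rose by 2.48 ± 0.51 and was also higher at T2 than at T1 (0.71 ± 0.11, adjusted p = 0.023). Shpk was at 8.22, 8.44 and 1.2 CPM in T0 replicates 1, 2 and 3 and at 29.2 to 36.6 CPM at T2. Pkm2, the row of pyruvate kinase M, for which 41.4% of the windows match elsewhere, was at 985, 1020 and 1130 CPM at T0 and 428 to 609 CPM later, lower at T1 (-1.14 ± 0.15, adjusted p = 0.0022) and T2 (-1.16 ± 0.11, adjusted p = 0.00015).

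Promoters of the genes called at all 3 times, and of Ldha, are shown for the core letters of the hypoxia response element, ACGTG or GCGTG. RefSeq promoters (GRCm38.p6) were found for 34 of the 35 genes, all but Slc2a3, and both strands were searched. Either core was in 76.5% of the 51 promoters of these genes and in 43.8% of 32851 promoters of the table. ACGTG was in 45.1% against 19.6% and GCGTG in 54.9% against 32.4%. The E-box CACGTG, which contains ACGTG on both strands, was in 13.7% against 7.15%. Overlapping promoters of a gene, as for Eno1 and Aldoa, count the same site more than once. The shares were not matched for base composition or expression and were not tested. The lines give, 5′ to 3′ on the gene's strand, the match of ACGTG nearest to the start site whose printed letters all lie before it, or of GCGTG where there is no ACGTG, with the core in capitals (CACGT is ACGTG read on the opposite strand).
Slc2a1, chr4:119108698-119108724, plus strand: tcccgccccggACGTGctccccaggcc
Pfkl, chr10:78009891-78009917, minus strand: tttgtagactgGCGTGcgctccgcctt
Aldoa, chr7:126799365-126799391, minus strand: gtggctcgagtCACGTcctagcggggc
Pgk1, chrX:106186958-106186984, plus strand: aatggaagtagCACGTctcactagtct
Pdk1, chr2:71873135-71873161, plus strand: cgcctacatggGCGTGtctttaaccag
Ldha, chr7:46845759-46845785, plus strand: gtgggttcccgCACGTccgctgggctc
Ldhb, chr6:142508068-142508094, minus strand: cgggggagagcGCGTGcacactccagc
The core begins 36 bases before the start site in Slc2a1 and 34 in Ldha, and 78 to 131 in the others. Tpi1 held neither core in this window. Ldhb, which rose, held a core too, and no binding was measured.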

How the data were processed

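Poly(A) RNA of 12 samples of mouse ANS cells was sequenced (TruSeq v2 libraries). Per the submitters' processing notes and the study's methods, the authors aligned reads to mm9 with TopHat2 2.0.6 and Bowtie 0.12.7.0. HTSeq 0.6.0 is also named in the notes. The authors deposited raw counts per gene and library (22609 genes) as well as FPKM values, whose tool is not given in the sources used here. Strand setting and read length are not given either. The 5 rows that name no gene entered neither library sizes nor tests. Of uniquely aligned reads, 13.3% to 24.1% lay on no gene.

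Counts were normalized by TMM, filtered with filterByExpr, and tested by edgeR 4.0.16 (quasi-likelihood F test, R 4.3.3) in a separate fit for each pair of time points, with Benjamini-Hochberg adjustment over all genes tested and a threshold of 0.05. Standard errors are the log2 fold change divided by the square root of F. CPM divide counts by the library total times its TMM factor over all libraries. Alternatives used DESeq2 1.42.0 or, on log2(FPKM + 1), limma 3.58.1. Isozyme ratios were log2 count ratios with 0.5 added, tested two-sided by exact permutation. Scripts were tested on simulated counts. Transcript windows of 50 bases came from GENCODE vM1.

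The 35 genes and all lists were chosen with earlier results of these data known. All 35 genes, the regulators, the 4 most abundant hypoxia-response genes and up to 4 called genes of the other pathway list per comparison are named. Aldoc, Vegfa, Pkm2 and the marker genes Olig2, Pdgfra and Mbp were named after their values were seen. Same-numbered T1 and T2 libraries deviated together (correlations 0.199, 0.341 and 0.166 over genes), which pairs them by the rule used, that all 3 exceed 0.1. By this rule numbers did not pair T0 with T1 or T2. T0 and T3 share only number 1, with a correlation of 0.404, which is too few to apply the rule.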

Additional observations from a re-analysis of the deposited data

Results flagged for a closer look

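Of the 35 genes, 5 had a T2 library whose distance to the nearest of the other 3 was a larger part of the range of the 4 than the 95% critical value of Dixon's test. Chance flags about 1 in 20 groups. T2 replicate 3 was high for Slc2a3 (26.2 CPM, the others 17.7 to 19) and Hk1 (162 CPM, the others 131 to 137) and low for Hk2 (14.9 CPM, the others 22.7 to 24). T2 replicate 2 was low for Pfkm (199 CPM, the others 218 to 220) and high for Pfkp (4.08 CPM, the others 2.45 to 2.7).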

How the results depend on the processing

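Genes lower at T1 and T2 and higher at T2 kept counts within 1.5 times of the reported ones under every alternative, except that 11 were lower at T1 without T1 replicate 1 or T1 replicate 2. Leaving out 1 library gave 11 to 22 genes lower and 1 to 7 higher at T1, 0 to 13 lower and 0 to 2 higher at T3, and 0 to 2 lower and 0 to 4 higher from T2 to T3, where the 4 came without T3 replicate 1. A lone T3 library was assumed to vary like the other group. Genes higher at T1 numbered 5 with DESeq2 and in one fit of all libraries, and 7 with libraries numbered 1 and 2 only. Genes lower at T3 numbered 13 with DESeq2, 17 in one fit of all libraries, 4 on FPKM with a pseudocount of 1 and 0 on FPKM with no filter. Ldhb, the gene higher at T3, was lost (0) with total counts, with at least 10 counts in every library and on FPKM with either pseudocount or no filter, and 2 were higher in one fit of all libraries. On FPKM, 0 were lower from T2 to T3 with either pseudocount or no filter. The causes were not tested.

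With the replicate number as a block, 0 genes were called between T1 and T2, where the numbers pair the libraries, as without it. The block left 0 genes lower from T2 to T3. In one fit of all libraries the block gave 5 higher at T1, 17 lower and 2 higher at T3, and 0 lower from T2 to T3. No two-group block was possible between T0 and T3, which share 1 number. Of the 10 ratios, 5 differed on FPKM, 5 over T0, T1 and T2 only, 5 to 9 when 1 library was left out, and 0 with the replicate block over T0, T1 and T2, whose smallest p, 0.028, is over 216 arrangements. The Pfkfb2 per Pfkfb3 ratio, T2 minus T0, was 0.12 on the log2 scale, -0.16 without T0 replicate 3 and -0.16 to 0.27 over the libraries left out. Genes with few counts (Eno2, Slc16a3, Gapdh, Eno1) limit what can be seen at this depth.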
